A study of Mus musculus with 2 samples.

Results

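The genes described here encode the nuclear subunits of oxidative phosphorylation. They were chosen by symbol from the 31053 genes listed in the matrices: every gene whose symbol begins with Nduf, Uqcr or Atp5, the 4 Sdh subunits, and the Cox4i, Cox5a, Cox5b, Cox6a, Cox6b, Cox6c, Cox7 and Cox8 genes, where at least 20 unique molecular identifiers (UMIs, where 1 UMI stands for 1 captured transcript) were counted over both libraries. This named 93 rows, of which 90 reached the minimum. The other 3 were Cox7b2 with 13 UMIs, Cox8c with 3 UMIs and a second row of Atp5o with 0 UMIs. The 90 genes comprise 36 genes of complex I, 8 assembly factors of complex I, 4 of complex II, 8 of complex III, 18 of complex IV and 16 of ATP synthase. Ndufa4 and Ndufa4l2 were counted in complex IV. The tissue-type isoforms of complex IV subunits, Cox6a2 and Cox6b2 among them, were counted there too, so sums and complex shares include them.

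The respiratory chain in the inner mitochondrial membrane passes electrons from NADH, at complex I, and from succinate, at complex II, through coenzyme Q, complex III and cytochrome c to oxygen at complex IV. The proton gradient that complexes I, III and IV build drives ATP synthase. Most subunits are encoded in the nucleus, while a few core subunits of every complex but complex II are encoded by mitochondrial DNA. In the alveolus, AT2 cells use this energy to make and recycle surfactant. Lkb1, whose gene symbol is Stk11, is a kinase that activates AMPK, a sensor of cellular energy.

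The study measured all cells of the lung, taken from mice 5 weeks old, with droplet single-cell RNA sequencing that tags the 3′ ends of transcripts. Control mice were Lkb1f/f, with floxed Lkb1 alleles and no Cre, and the other mice were Nkx2.1 Cre;Lkb1f/f, with the same floxed alleles and a Cre under Nkx2.1, a transcription factor gene of the lung epithelial lineage. For each genotype the cells of 3 mice went into a single library, the control library or the Cre library. Without a second library of either genotype no test was possible, and genotype, mice, pool and library cannot be told apart. Parentheses hold exact 95% intervals, which reflect counting error alone.

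The control library kept 12448 cells with 68977184 UMIs, at a median of 3611 UMIs per cell, and the Cre library kept 14712 cells with 74752644 UMIs, at a median of 3251. Each cell was named from its own marker genes, which placed 91.6% of control and 88.8% of Cre cells, and names end in -like because they rest on those markers alone. All markers of the 24 classes with at least 50 cells in each library were detected in both libraries. The erythroid-like barcodes also carried the AT2 transcript Sftpc at 14631 in the control and 23527 in the Cre library per 1000000 UMIs of the class (CPM), so they are plotted but not described further. The AT1-like cells held Sftpc at 14366 and 16650 CPM, and 68 cell barcodes occurred in both libraries. Stk11 stood at 48.9 CPM in control and 29.2 CPM in Cre AT2-like cells, a ratio of 0.598 (0.527 to 0.679), and its ratio in AT1-like cells was 0.577 (0.366 to 0.924). In secretory airway-like cells the ratio was 1.09 (0.814 to 1.46) and in ciliated-like cells 0.887 (0.639 to 1.23), so both intervals held 1. Outside the epithelium and those erythroid-like barcodes the ratio ran from 0.852 in aerocyte capillary-like to 2.12 in conventional dendritic-like cells. A 3′ tag may lie outside the deleted part, so these levels check little.

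Promoters are shown for 3 members named below, all higher in Cre AT2-like cells, because they carry motifs of factors known to act on respiratory genes. The sequences are from RefSeq (GRCm38.p6), 250 bases before to 50 bases after the gene start, and 75 of the 90 members had an entry. Capitals mark the motif. The promoter of Cox6a1, the widely expressed form of subunit 6a, lies at chr5:115348909-115349208 on the minus strand and holds the palindromic NRF1 motif. That of Uqcrfs1, the Rieske iron-sulfur protein of complex III, lies at chr13:30545267-30545566 on the minus strand and holds the cAMP response element TGACGTCA. That of Atp5g3, a gene of the c subunit that forms the rotor ring of ATP synthase, lies at chr2:73911277-73911576 on the minus strand and holds the motif TCAAGGTCA of estrogen-related receptors on the other strand.
Cox6a1: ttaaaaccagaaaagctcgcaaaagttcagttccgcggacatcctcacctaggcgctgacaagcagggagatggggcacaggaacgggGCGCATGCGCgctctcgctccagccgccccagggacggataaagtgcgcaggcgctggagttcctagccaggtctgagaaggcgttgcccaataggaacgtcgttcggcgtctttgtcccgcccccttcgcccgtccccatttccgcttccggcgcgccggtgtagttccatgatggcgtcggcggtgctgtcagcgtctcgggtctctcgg
Uqcrfs1: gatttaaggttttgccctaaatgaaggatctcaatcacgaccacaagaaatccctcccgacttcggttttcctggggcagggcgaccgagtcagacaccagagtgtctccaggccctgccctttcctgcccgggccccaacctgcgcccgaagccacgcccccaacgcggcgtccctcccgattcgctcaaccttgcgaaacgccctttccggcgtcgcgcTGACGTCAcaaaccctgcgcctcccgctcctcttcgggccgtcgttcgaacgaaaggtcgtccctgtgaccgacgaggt
Atp5g3: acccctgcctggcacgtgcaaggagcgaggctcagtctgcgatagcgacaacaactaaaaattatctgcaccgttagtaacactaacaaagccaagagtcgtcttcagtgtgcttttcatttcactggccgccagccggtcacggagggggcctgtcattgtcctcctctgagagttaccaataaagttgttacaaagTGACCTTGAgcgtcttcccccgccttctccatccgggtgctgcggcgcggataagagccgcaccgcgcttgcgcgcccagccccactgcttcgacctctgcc
All 5 motifs were searched on both strands. The NRF1 motif, spelled by the capitals of Cox6a1, was found in 7 of the 75 member promoters (9.33%) and in 0.977% of the 27025 promoters of this length. The YY1 motif AAGATGGC was found in 13.3% of member promoters and 2.88% of all, the GABP motif CCGGAAGT in 6.67% and 4.0%, the cAMP response element in 5.33% and 1.88%, and the estrogen-related receptor motif in 2.67% and 0.407%. The NRF1 motif was also found in Atp5k and the YY1 motif in Ndufa3, both among the lowest members across classes below. Member promoters had a median GC content of 58.7%, against 52.7% over all promoters, and a match is a description of these letters, not of binding.

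Across cell classes, the summed level of the 90 genes was highest in the thin gas-exchange (AT1-like) cells of the alveolus in both libraries, at 24211 CPM in control cells and 25489 CPM in Cre cells. Neutrophil-like cells had the lowest level outside the erythroid-like barcodes, at 7805 and 7863 CPM. Secretory airway-like cells, at 10169 and 13746 CPM, came next from below in the control library, and B-like cells, at 14141 and 12399 CPM, were also low. AT2-like cells ranked 13 of 24 in the control library at 18263 CPM and 3 of 24 in the Cre library at 22664 CPM. These ranks depend on Sftpc. With Sftpc left out of their total, AT2-like cells stood at 23499 and 27043 CPM. The Cre value then lay above the AT1-like level given here, which keeps Sftpc in its total. These are shares of each class's own UMIs, so a class whose RNA is dominated by a few transcripts has less room for the rest. The AT1-like level rests on shallow cells, with a median of 1055 and 1092 UMIs per cell. The plot of summed levels by class shows this order.

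**Figure D1:**
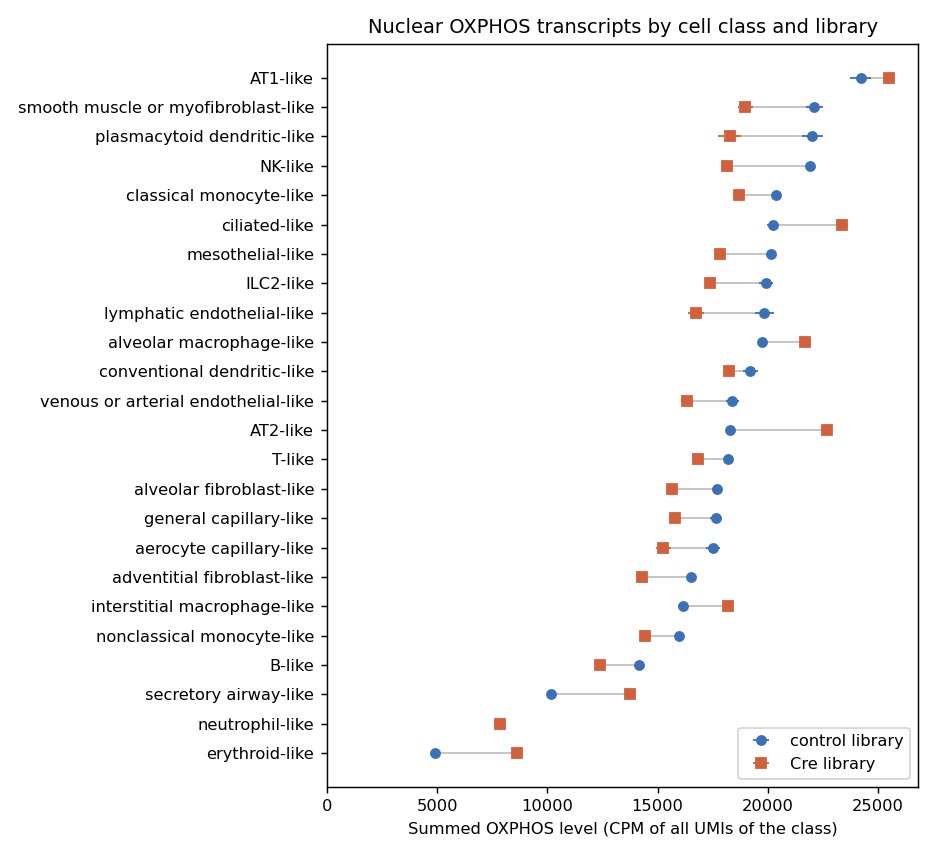
Summed level of the 90 nuclear oxidative phosphorylation genes in CPM (horizontal axis, from 0) for 24 cell classes, with circles for the control library, squares for the Cre library and bars for exact 95% counting intervals. AT2-like cells move from 18263 to 22664 CPM, while NK-like cells move from 21892 to 18147 CPM.

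Complex I, complex IV and ATP synthase kept a narrow balance across the 23 classes other than erythroid-like, while the smallest groups varied more in proportion. In the control library complex I made up between 26.02% of the summed level, in alveolar macrophage-like cells, and 33.3%, in AT1-like cells. Both ends were held by the same classes in the Cre library, at 25.7% and 33.2%. Complex II, which links the citric acid cycle to the chain, was the smallest of the complexes, at a median of 1.51% in the control and 1.66% in the Cre library. Its share ran from 1.16% to 2.20% in the control and from 1.37% to 2.52% in the Cre library. The complex I assembly factors ran from 0.639% to 1.44% and from 0.605% to 1.61%. ATP synthase had medians of 26.5% and 27.05%, complex III 10.8% and 11.1%, and complex IV 30.1% and 29.8%. Of the 90 genes, 49 were highest in the same class in both libraries. AT1-like cells held the highest level of 28 members in the control and 32 in the Cre library, and smooth muscle or myofibroblast-like cells of 12 and 5, and ciliated-like cells of 7 and 15.

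In AT2-like cells, the cells that make surfactant, nuclear oxidative phosphorylation transcripts took a larger share of UMIs in the Cre library. The summed level was 18263 CPM in 1402 control cells and 22664 CPM in 1650 Cre cells, a ratio of 1.24 (1.23 to 1.25). This sum includes Cox6a2 of complex IV, which went the other way, at 234 and 24.4 CPM. Every complex lay above 1, from complex I with 5786 CPM in control cells and 7056 CPM in Cre cells, a ratio of 1.22 (1.21 to 1.23), to complex III with 1891 and 2429 CPM, a ratio of 1.28 (1.26 to 1.31). Of the 88 members with at least 50 UMIs in the class, 71 had a ratio whose interval lay above 1 (44.9% of all genes), 3 had one below 1 (10.3%) and 14 had one that held 1. Abundant genes have narrower intervals, so these shares depend on level too. The shift was broad and small. Over 10984 genes the median ratio was 1.12, and 56 of the 88 intervals lay above that ratio (27.6% of all genes). Relative to it the members had a median log2 ratio of 0.14, called the relative median below, with 69 above and 19 below. None of the 88 lay at least 1.5-fold above the all-gene median, where 4.12% of all genes did, and 1 lay that far below, where 3.61% did.

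Sftpc, the surfactant protein C transcript, made up 22.3% of control and 16.2% of Cre UMIs in this class and so moved with the level. With Sftpc left out of the total, the members stood at 23499 CPM in control cells and 27043 CPM in Cre cells, a ratio of 1.15. Without the 20 most abundant genes in the total the ratio was 1.12. Single cells overlapped widely. With each cell thinned to 1000 UMIs, which left out 75 control and 54 Cre cells, the members took a median of 1.8% of UMIs in control cells (quartiles 1.5 and 2.2%) and 2.2% in Cre cells (1.7 and 2.63%). Unthinned, the medians were 1.83% and 2.15%, and 77.7% of Cre cells lay above the control median and 58.7% above the control upper quartile. Among Cre AT2-like cells, the 770 with a Sox9 UMI had a summed level of 23977 CPM and the 880 without had 21262 CPM, at median depths of 8474 and 7582.5 UMIs and with Sftpc at 14.7% and 17.8% of UMIs.

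Among the AT2-like members, Cox5a, a subunit of complex IV, had the highest ratio by the bound of its interval nearest 1. It stood at 205 CPM in control cells and 339.7 CPM in Cre cells, a ratio of 1.66 (1.58 to 1.74). Ndufab1, the mitochondrial acyl carrier protein that is also a complex I subunit, stood at 113 and 179 CPM, a ratio of 1.59 (1.49 to 1.69). Ndufc2, an accessory subunit of the membrane arm of complex I, stood at 322 and 491 CPM, a ratio of 1.52 (1.46 to 1.58). Ndufaf4, a complex I assembly factor, was low in both libraries, at 13.5 and 23.7 CPM, with a ratio of 1.76 (1.46 to 2.12). Atp5g3 stood at 183 and 273 CPM, with a ratio between 1.42 and 1.58, and Uqcrfs1 at 60.96 and 93.3 CPM (1.53, 1.40 to 1.67). The highest 6 members thus came from complexes I, III and IV, ATP synthase and the assembly factors.

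The lowest 6 were Cox6a2 and Cox6b2, described below with the isoforms, and Ndufa3, Ndufa7, Atp5e and Cox7a2l. Ndufa3, a complex I accessory subunit, stood at 176 CPM in control cells and 162 CPM in Cre cells, a ratio of 0.922 (0.870 to 0.978). Ndufa7, another accessory subunit, stood at 370.02 and 364 CPM (0.985, 0.947 to 1.02), so its interval held 1. Atp5e, the epsilon subunit of ATP synthase, stood at 698 and 706 CPM (1.01, 0.984 to 1.04). Cox7a2l, a factor of supercomplexes between complexes III and IV, stood at 284 and 288 CPM (1.01, 0.969 to 1.06).

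The catalytic and core subunits named here lay above 1 in AT2-like cells. In complex I, Ndufs1, which carries iron-sulfur clusters, had a ratio of 1.42 (1.23 to 1.64) and Ndufv1, which binds NADH, 1.18 (1.08 to 1.31). Ndufs1 was the lowest complex I member in the control, at 24.99 CPM, and Ndufa13 the highest, at 382 CPM. In complex II, Sdha, the flavoprotein that oxidises succinate, stood at 79.5 and 108 CPM (1.35, 1.25 to 1.46), while Sdhc, a membrane anchor, had a ratio of 1.16 (1.06 to 1.26) and Sdhd, the other anchor, one of 1.30 (1.18 to 1.43). In complex III, the core protein Uqcrc1 had a ratio of 1.45 (1.32 to 1.60), and the abundant small subunits Uqcrh, at 503 CPM in the control, and Uqcr11, at 406 CPM, had ratios of 1.27 and 1.26. In complex IV, Cox4i1 was the most abundant member of all, at 787 CPM in control cells and 1020.5 CPM in Cre cells (1.30, 1.26 to 1.33). Cox5b had a ratio of 1.36 and Cox6c, at 714 and 796 CPM, one of 1.11. In ATP synthase the alpha subunit Atp5a1, the catalytic beta subunit Atp5b and the gamma subunit Atp5c1 had ratios of 1.44, 1.42 and 1.24, and Atp5h, a stalk subunit, stood at 489 and 617 CPM. Among the assembly factors, Ndufaf8 stood at 53.4 and 64.5 CPM and Ndufaf3 at 34.9 and 41.9 CPM. Ndufaf5, at 3.83 and 5.61 CPM, and Atp5s, at 4.28 and 4.80 CPM, were the lowest of their groups.

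**Figure D2:**
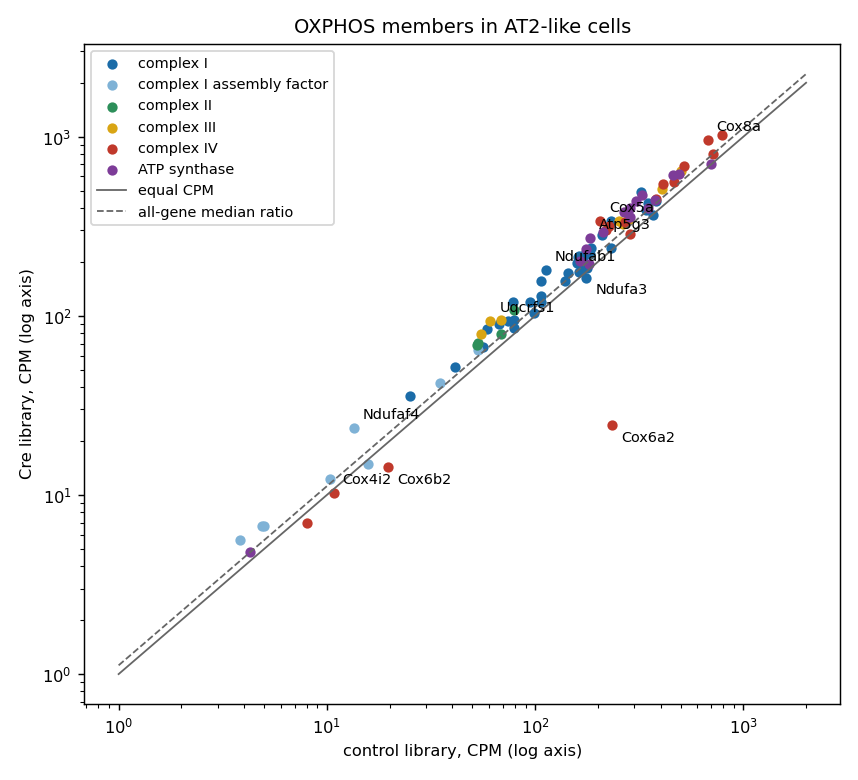
CPM of each of the 88 measured members in AT2-like cells of the control library (horizontal, log axis) and the Cre library (vertical, log axis), coloured by complex, with a solid line for equal CPM and a dashed line for the all-gene median ratio of 1.12. Most points lie just above both lines, and Cox6a2 lies far below them.

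Other mitochondrial genes of AT2-like cells differed by group, and their counts past the fold are read against the 4.12% of all genes that were higher and the 3.61% that were lower. On lists this small, 1 or 2 genes past the fold are close to those shares. The 13 subunits encoded by mitochondrial DNA went the other way, with a relative median of -0.27, 12 of 13 below the all-gene median and 1 of 13 at least 1.5-fold below it. The lowest, mt-Nd4l of complex I, stood at 474 CPM in control cells and 341 CPM in Cre cells, a ratio of 0.719 (0.692 to 0.747). The ratios of mt-Nd3, mt-Atp8 and mt-Nd1 were 0.820, 0.820 and 0.837. Of 16 listed regulators of mitochondrial biogenesis that were measured, 1 was at least 1.5-fold higher and 0 lower, with 8 above and 8 below the median of all genes. That 1 was Ppargc1a, a coactivator of respiratory genes, at 10.5 and 48.7 CPM, a ratio of 4.66 (3.88 to 5.62). Pprc1, a related coactivator, stood at 3.46 and 6.94 CPM.

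Of 21 genes of the citric acid cycle and pyruvate entry, 2 were at least 1.5-fold higher and 0 lower, with a relative median of 0.14. Fh1, fumarate hydratase, stood at 30.8 and 79.4 CPM, a ratio of 2.58 (2.30 to 2.89), Pcx, pyruvate carboxylase, had a ratio of 1.83 and Mdh2, malate dehydrogenase, one of 1.61. Of 15 genes of cytochrome c, coenzyme Q and carriers, 2 were higher and 0 lower. They were Coq10b, which binds coenzyme Q, with a ratio of 1.98 (1.71 to 2.30), and Cycs, cytochrome c, with 94.6 and 170 CPM and a ratio of 1.79 (1.67 to 1.92). Of 22 import and chaperone genes, 2 were higher and 0 lower, namely the chaperonin Hspd1 and its partner Hspe1, with ratios of 1.82 (1.67 to 1.97) and 1.77 (1.68 to 1.87). Of 77 mitochondrial ribosomal genes 1 was higher and 0 lower. That gene was Mrps6, at 14.8 and 46.6 CPM, a ratio of 3.15 (2.68 to 3.70). The 38 assembly factors outside the rule had a relative median of 0.04, with 0 past the fold in either direction. In AT2-like cells the groups of nuclear mitochondrial genes thus had medians between 0.02 and 0.20, while the mitochondrially encoded subunits lay below 0.

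Tissue-type isoforms of complex IV subunits were measured in fewer classes than the common subunits. Of 23 classes, Cox6b2 reached 50 UMIs in 11, Cox6a2 and Cox7a1 in 2 each, and Cox8b, Ndufa4l2 and Cox4i2 in 1 each. Cox6a2, the form of subunit 6a known from heart and skeletal muscle, is encoded on the minus strand of chromosome 7 from 128205435 to 128206387 (GRCm38, GENCODE M21). It was highest in plasmacytoid dendritic-like cells, interferon-producing cells of the immune system, at 1322 CPM (1209 to 1443) in 55 control cells and 566 CPM (479 to 664) in 55 Cre cells. There it made up 83.6% and 71.4% of the UMIs of the pair Cox6a1 and Cox6a2. In AT2-like cells it stood at 234 CPM in control cells and 24.4 CPM in Cre cells, a ratio of 0.105 (0.0932 to 0.117). Its share of the pair was 50.8% (49.5 to 52.04%) in control and 7.13% (6.40 to 7.91%) in Cre AT2-like cells. Cox6a1 moved the other way, from 226 to 318 CPM, so the sum of the pair was lower in the Cre library.

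After thinning to 1000 UMIs, Cox6a2 was found in 19.5% (17.4 to 21.8%) of AT2-like cells of the control and 1.88% (1.27 to 2.67%) of those of the Cre library, and in 67.3% and 37.7% of plasmacytoid dendritic-like cells. In B-like cells, taken as the background, the shares were 0.525% and 0.139%, at median depths of 3061 and 2018 UMIs against 10272 and 7993 in AT2-like cells. Thinning left out 10 and 72 B-like cells and 0 and 2 plasmacytoid dendritic-like cells. Unthinned, the gene was seen in 64.9% of AT2-like cells of the control, 13.8% of those of the Cre library and in 1.04% and 0.199% of B-like cells. No single cell carried the AT2-like result, since the highest control cell held 28 of 3168 UMIs and the highest Cre cell 8 of 331. Of the plasmacytoid dendritic-like cells, 1 control cell held 2144 of the 2361 Sftpc UMIs of that group, a look taken after the values were seen. Without the cell highest in Cox6a2 in each library the levels of Cox6a2 were 1276 and 528 CPM. Among Cre AT2-like cells Cox6a2 stood at 18.2 CPM (15.1 to 21.6) with a Sox9 UMI and 31.1 CPM (27.02 to 35.7) without, both far below the control level. AT1-like cells of the control held 72.4 CPM on 30 UMIs, of which 4 cells gave 20. Those cells had 5.04 Cox6a2 UMIs per 1000 Sftpc UMIs (3.40 to 7.199), against 1.05 in control AT2-like cells. Control lymphocytes differed in this figure, with 4.83 (3.06 to 7.25) in B-like, 2.77 (1.38 to 4.96) in NK-like and 1.59 (0.688 to 3.14) in T-like cells.

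Cox6b2, the form of subunit 6b known from testis, was highest in alveolar fibroblast-like cells, at 191 CPM in control cells and 138 CPM in Cre cells, where it made up 38.3% and 31.9% of the UMIs of Cox6b1 and Cox6b2. Adventitial fibroblast-like cells held 89.3 and 89.6 CPM and alveolar macrophage-like cells 76.6 and 64.9 CPM. Thinned, Cox6b2 was seen in 14.6% of alveolar fibroblast-like cells of the control and 11.8% of those of the Cre library, against 0.408% and 0.835% of B-like cells, and unthinned in 27.1% and 32.9%, against 1.51% and 1.92%, with 207 and 211 alveolar fibroblast-like cells left out by thinning. In AT2-like cells it was low, at 19.8 and 14.3 CPM, a ratio of 0.721 (0.596 to 0.871). Ciliated-like cells had 5.90 CPM on 7 UMIs in the control and 83.7 CPM on 101 UMIs in the Cre library, a ratio of 14.2 (6.64 to 36.2). Those 101 UMIs lay in 16 of 80 cells, and 4 of these cells held 78 of them. Without the 4 highest cells in each library the levels were 0.928 and 20.6 CPM.

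Cox8b, a muscle-type form of subunit 8, was found in alveolar fibroblast-like cells at 34.4 CPM (25.9 to 44.8) in the control and 10.3 CPM (7.23 to 14.3) in the Cre library, where it made up 5.29% and 1.94% of the pair with Cox8a. Lymphatic endothelial-like cells held 12 control UMIs and 2 Cre UMIs. Cox4i2, a form of subunit 4 known from lung and low oxygen, was highest in the few pericyte-like cells, at 222 CPM on 20 UMIs of 17 control cells and 195 CPM on 17 UMIs of 24 Cre cells. In smooth muscle or myofibroblast-like cells it stood at 47.005 and 37.9 CPM, and it made up 4.81% and 4.24% of the pair with Cox4i1. Ndufa4l2, a paralogue of Ndufa4 that low oxygen induces, stood at 37.999 CPM in control and 15.9 CPM in Cre adventitial fibroblast-like cells. In smooth muscle or myofibroblast-like cells it stood the other way round, at 13.2 and 39.5 CPM, and pericyte-like cells held 22 control and 4 Cre UMIs. Cox7a1, the muscle-type form of subunit 7a, stayed at or below 19.3 CPM in every class of at least 50 cells. The 3 genes of the ATP synthase c subunit were all present, and in AT2-like cells Atp5g1 had 175 and 236 CPM, Atp5g2 284 and 401 CPM, and Atp5g3 the levels given above.

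**Figure D3:**
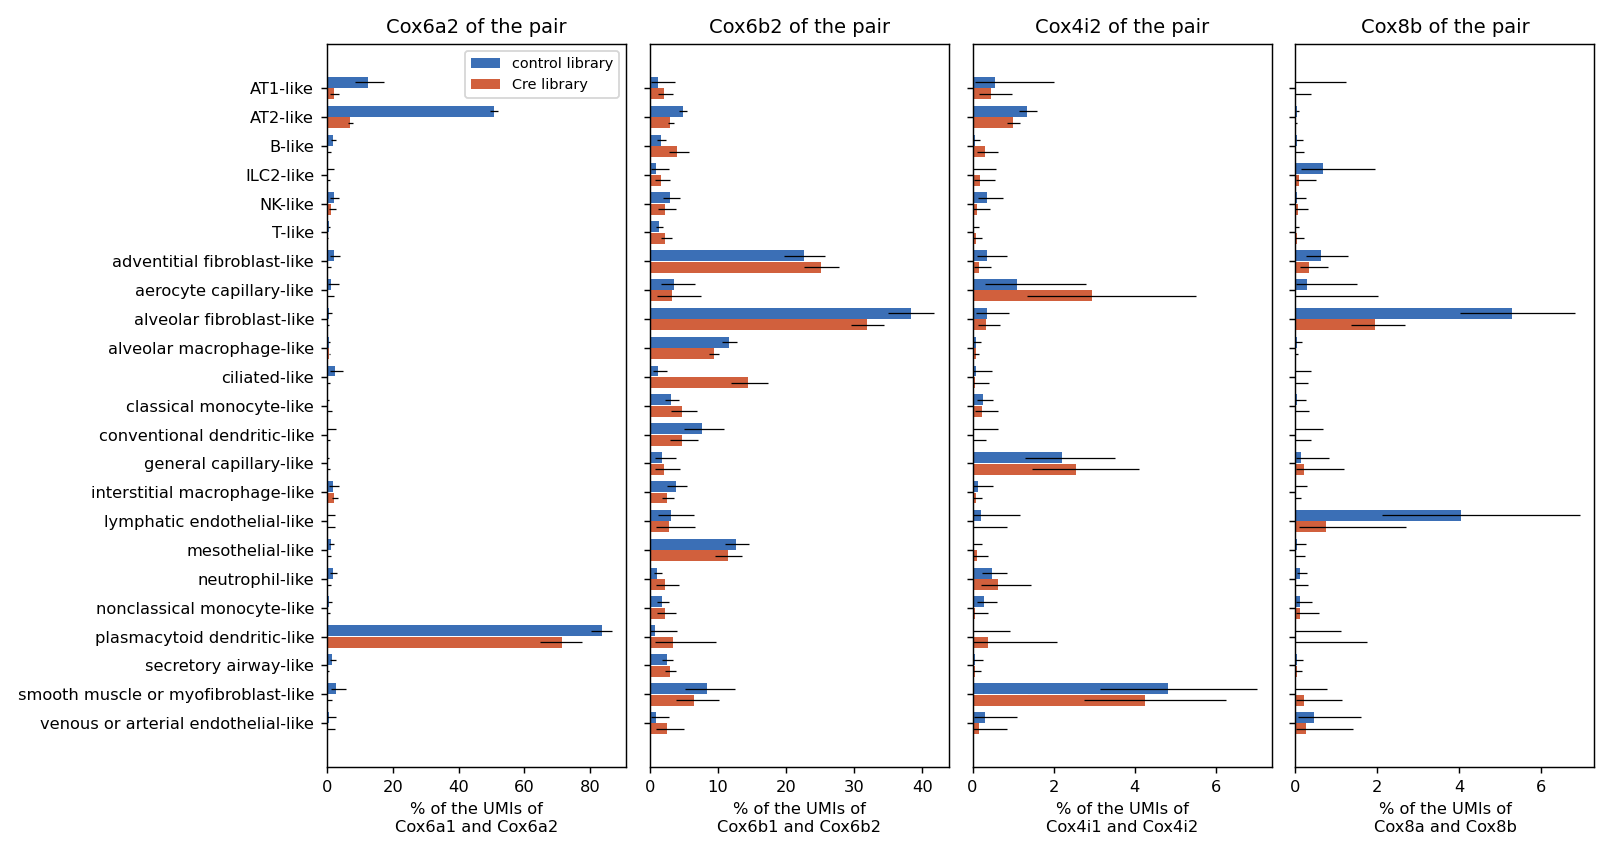
Share of the tissue-type isoform in the UMIs of its pair (horizontal axis, percent, from 0, with a scale of its own in each panel) for 23 cell classes, with blue bars for the control library, orange bars for the Cre library and lines for exact 95% counting intervals. Cox6a2 stands out in plasmacytoid dendritic-like cells and in control AT2-like cells, and Cox6b2 in the fibroblast-like classes.

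In the other epithelial classes the members moved with the rest of the genes. Secretory airway-like cells had the highest ratio of the summed level in the epithelium, from 10169 to 13746 CPM (1.35, 1.34 to 1.37), but the relative median was -0.01. Among 81 members 0 were at least 1.5-fold higher (5.70% of all genes) and 1 was lower (4.80%). That 1 was Uqcr10, a small complex III subunit, at 331 and 289 CPM (0.872, 0.817 to 0.930). Ndufb9, a complex I accessory subunit, stood at 104 and 193 CPM (1.85, 1.68 to 2.04), Atp5g3 at 100.05 and 183 CPM (1.83, 1.66 to 2.02) and Cox5a at 139.98 and 236 CPM (1.69, 1.55 to 1.84). Atp5e and Atp5k, which is subunit e of ATP synthase, were the next lowest, with ratios of 1.08 and 1.04. Ciliated-like cells had 20234 and 23378 CPM (1.16, 1.14 to 1.18) and a relative median of 0.05. Among 80 members 1 was higher (5.58% of all genes) and 1 lower (6.20%). The higher one was Cox6b2 and the lower one Atp5k, at 189 and 133 CPM (0.706, 0.573 to 0.869). Atp5g1 and Ndufb9 followed Cox6b2 with ratios of 1.59 and 1.52, and Atp5j2 and Ndufc1 followed Atp5k with 0.947 and 0.940. AT1-like cells had 24211 and 25489 CPM (1.05, 1.03 to 1.08), a relative median of -0.01, and 0 of 77 members were higher (11.2% of all genes) or lower (8.56%). Ndufc2, Cox4i1 and Atp5g2 were the highest there, with ratios of 1.41, 1.29 and 1.27, and Atp5k, Ndufa1 and Atp5e the lowest, with 0.797, 0.795 and 0.901.

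Alveolar macrophage-like cells, phagocytes of the airspace, also had most members above the all-gene median. They had 19712 CPM in 520 control cells and 21697 CPM in 1117 Cre cells, a ratio of 1.10 (1.09 to 1.11). The relative median was 0.20, and 70 of 85 members lay above the all-gene median. At least 1.5-fold from it were 1 higher member (6.28% of all genes) and 0 lower ones (4.08%). The higher one was Ndufb9, at 196 and 289 CPM (1.47, 1.37 to 1.59). Atp5g1 and Ndufb5, a complex I accessory subunit, had ratios of 1.41 and 1.36. Cox7c, a small complex IV subunit, stood at 654 and 563 CPM (0.860, 0.824 to 0.898) and was lowest, followed by Atp5k and Ndufa3 with 0.883 and 0.882. Here the mitochondrially encoded subunits lay above the median too, at 0.33. Interstitial macrophage-like cells had 16132 and 18195 CPM (1.13, 1.11 to 1.14) but a relative median of -0.04. Among 80 members 6 were higher (10.3% of all genes) and 1 was lower (9.20%). Sdha stood at 73.1 and 161 CPM there (2.20, 1.81 to 2.69).

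In 17 further classes of lymphocytes, monocytes, dendritic cells, neutrophils, endothelium and mesenchyme, the members lay below the all-gene median. Their relative medians ran from -0.16 in mesothelial-like to -0.41 in NK-like cells. The summed level was lower in the Cre library in 16 of these classes, and in neutrophil-like cells the interval of the ratio, 1.01 (0.988 to 1.03), held 1. In NK-like cells, the cytotoxic lymphocytes, the members stood at 21892 CPM in 359 control cells and 18147 CPM in 528 Cre cells, a ratio of 0.829 (0.816 to 0.842). Of 78 members there, 20 were at least 1.5-fold below the all-gene median (5.47% of all genes) and 0 above (4.22%). Atp5e stood at 975 and 628 CPM (0.644, 0.595 to 0.696) and Ndufa7 at 271 and 165 CPM (0.610, 0.523 to 0.710), while Atp5a1 stood at 338 and 416 CPM (1.23, 1.10 to 1.38). In B-like cells 15 of 82 members were lower (3.06% of all genes) and 0 higher (1.73%), and in ILC2-like cells, innate cells of type 2 immunity, 18 of 78 (8.74%) and 0 (8.62%). In T-like cells 7 of 84 were lower (3.60%) and 0 higher (3.41%).

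Among the other myeloid classes, 8 of 79 members were lower in classical monocyte-like cells (5.96% of all genes) and 0 higher (4.55%). Nonclassical monocyte-like cells had 9 of 78 lower (4.67%) and 1 higher (3.28%), and conventional dendritic-like cells 8 of 75 lower (10.0%) and 1 higher (11.8%). The last share of lower members is near that of all genes. Neutrophil-like cells had 9 of 77 lower (6.51%) and 0 higher (5.33%), and plasmacytoid dendritic-like cells 11 of 70 lower (6.46%) and 0 higher (9.71%). In plasmacytoid dendritic-like cells the summed level was 22007 and 18264 CPM (0.830, 0.801 to 0.860). Cox6a2 alone gave 1322 and 566 CPM of these sums, so part of the difference is that of 1 isoform.

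In the endothelium, 6 of 78 members were lower in general capillary-like cells (5.27% of all genes) and 0 higher (4.91%), and 7 of 75 in aerocyte capillary-like cells (7.86%) with 0 higher (7.86%). Venous or arterial endothelial-like cells had 6 of 75 lower (6.25%) and 0 higher (6.64%), and lymphatic endothelial-like cells 8 of 74 lower (7.77%) and 0 higher (9.75%). In these classes the shares of lower members were near or somewhat above those of all genes, and most members lay below the all-gene median. Alveolar fibroblast-like cells had 3 of 82 lower (6.24%) and 0 higher (8.17%), adventitial fibroblast-like cells 8 of 82 lower (5.23%) and 0 higher (5.04%), and mesothelial-like cells 1 of 81 lower (3.05%) and 0 higher (3.22%). Smooth muscle or myofibroblast-like cells had 12 of 75 lower (10.9%) and 0 higher (10.6%).

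**Figure D4:**
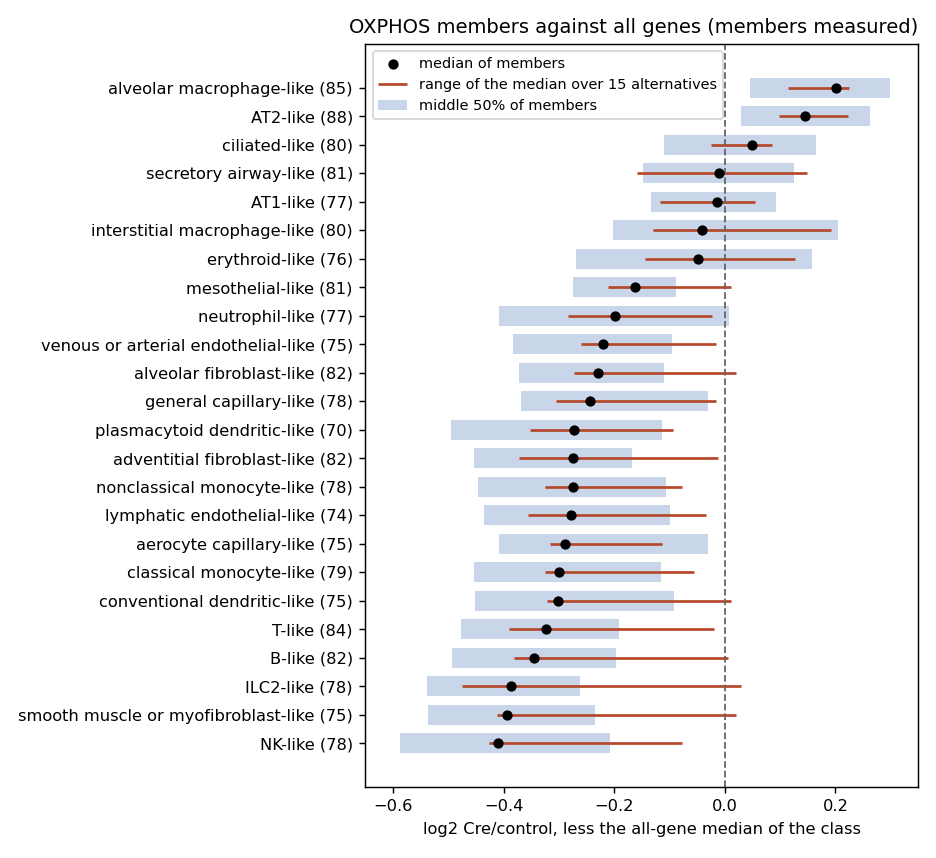
Median log2 ratio, Cre over control, of the measured members less the all-gene median of the class (black points, horizontal axis), with the middle 50% of the members (blue bars) and the range of the median over 15 processing alternatives (red lines), for 24 classes with the number of members in parentheses. AT2-like and alveolar macrophage-like cells lie above 0 throughout, while the red lines of several lymphoid and mesenchymal classes reach 0.

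Several other measures also differed between the libraries in these classes. In the 17 classes the median mitochondrial share per cell was higher in the Cre library in 15, the ribosomal protein share lower in 15 and the median depth lower in 12. Median depth was lower in Cre AT2-like cells too, at the depths given above, although the members lay above the all-gene median there. B-like cells, for example, had median depths of 3061 and 2018 UMIs and ribosomal protein shares of 28.2% and 22.9%. Transcript length also moved with the ratio. The longest annotated transcript of the members had a median of 913 bases, against 2083.5 bases for the other genes, and 50 of the 90 members were under 1000 bases. Across all measured genes of a class, the Spearman correlation of the ratio with that length was between 0.28 and 0.46 in the 17 classes, over 1935 to 8934 genes that share their 2 libraries. It was 0.03 over 10979 genes in AT2-like cells, 0.20 in secretory airway-like and -0.08 in alveolar macrophage-like cells. Among the members alone it was 0.20 in AT2-like cells, inside the range of the 17 classes, from 0.14 in ILC2-like to 0.36 in T-like cells. Genes under 1000 bases that are not members had relative medians between -0.17 and -0.42 in the 17 classes. In NK-like cells these 423 genes stood at -0.38, the 43 members under 1000 bases at -0.46 and the 35 longer members at -0.33, while the longer other genes stood at 0.03. In AT2-like cells the 621 short other genes stood at -0.09, the 48 short members at 0.13 and the 40 longer members at 0.16. Set against short genes alone, the short members lay between -0.12 and 0.03 in the 17 classes, below 0 in 11 and above in 6, and at 0.22 in AT2-like cells. The part of length, depth, ribosomal and mitochondrial share in these results was not tested further.

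Members differed in a like order from class to class, as the heat map of members by class shows. Over the 23 classes without erythroid-like barcodes, Ndufa3 and Atp5k lay below the all-gene median in 23 of 23, with medians of -0.59 and -0.57, and Atp5e in 22 of 23. These transcripts have 515, 371 and 421 bases. At the other end, Atp5a1, of 2674 bases, lay above the all-gene median in 23 of 23 classes, with a median of 0.22, and Sdha, of 2900 bases, in 18 of 23. Cox5a, of 645 bases, and Atp5b, of 1916 bases, lay between these, each with a median of -0.04. Length did not order all members. Ndufb2, of 4371 bases, and Atp5g1, of 4715 bases, had medians of -0.37 and -0.30. Uqcrh, of 547 bases, and Atp5g3, of 723 bases, had medians of -0.002 and -0.0003. All 23 comparisons share the same 2 libraries, so the classes are not independent of each other in this respect.

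**Figure D5:**
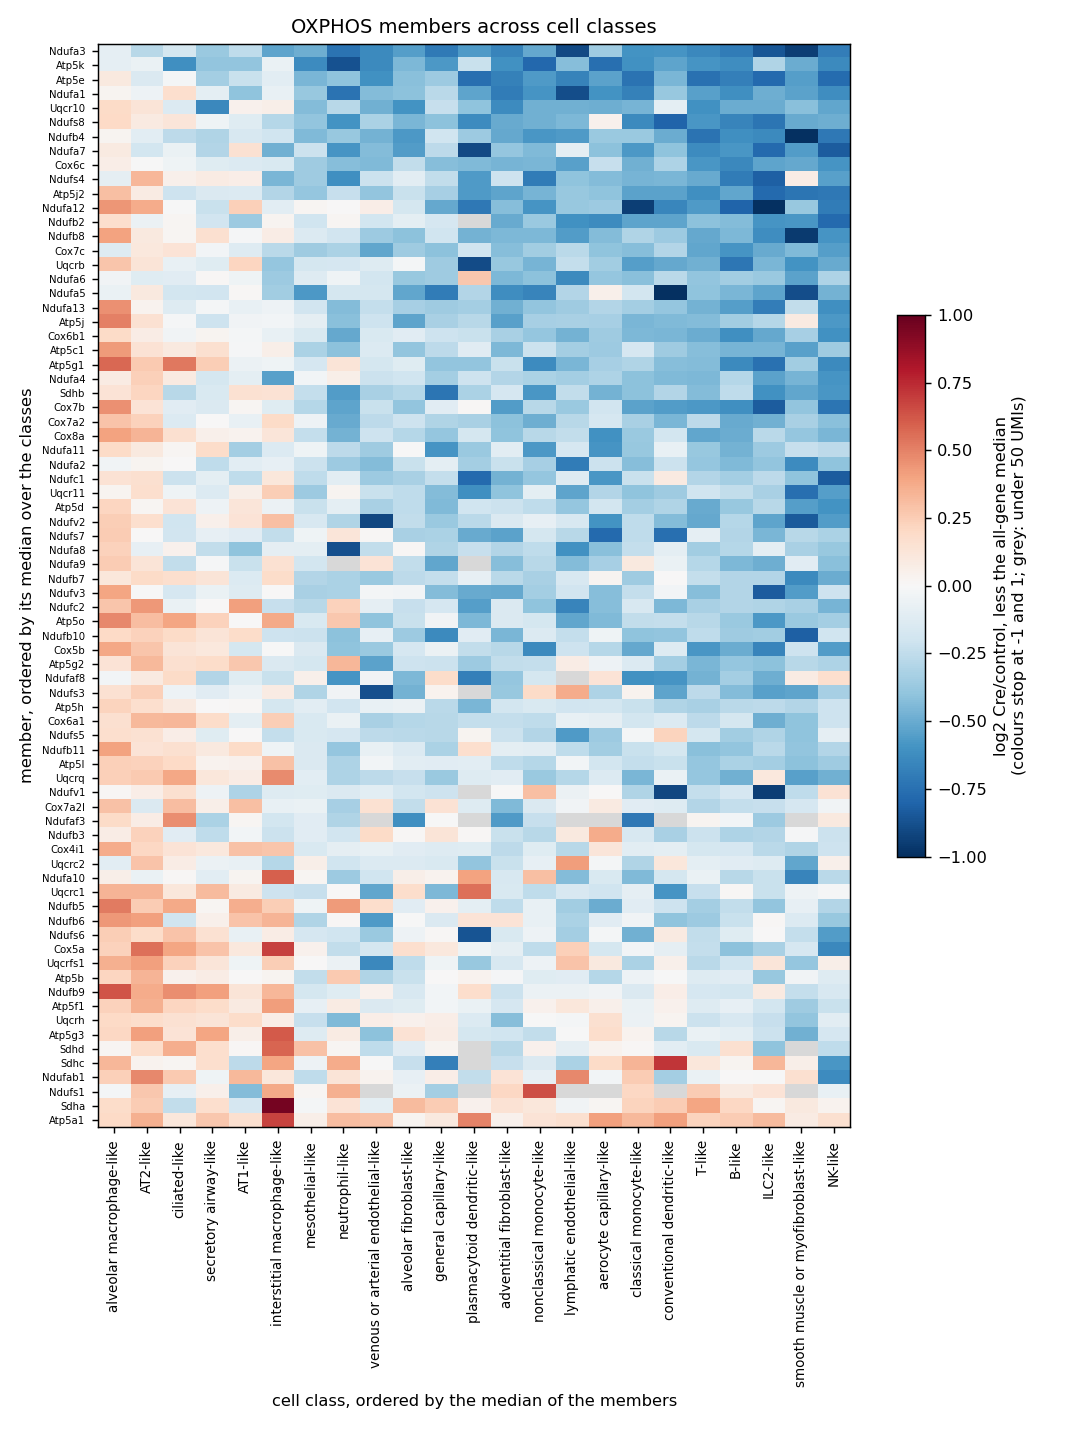
Log2 ratio, Cre over control, less the all-gene median of the class (colour, with limits at -1 and 1) for 76 members measured in at least 15 classes (rows, ordered by their median) and 23 cell classes (columns, ordered by the median of the members), with grey for genes under 50 UMIs. Atp5a1, in the last row, is above 0 in every column, and Ndufa3, in the first row, is below 0 in every column.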

How the data were processed

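The files hold unnormalized UMI counts, as deposited by the authors. Per the submitters' processing notes Cell Ranger 3.1.0, STAR and mm10 were used, and the file headers name software version 3.0.0. Which annotation was used and how reads shared with pseudogene copies were handled is not given in the sources used here. Of the members, 6 overlap another listed gene on the same strand (Atp5o, Ndufa13, Ndufb2, Ndufb8, Ndufb9, Cox4i1) and 27 one on the other strand, so their counts are less certain. Coordinates and lengths are from GENCODE M21 (GRCm38).

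From these counts, barcodes with at least 200 genes, 500 UMIs and at most 20% mitochondrial UMIs were kept, and Scrublet (scanpy 1.11.5, expected rate 0.06) removed 415 control and 399 Cre doublets. Free RNA was not subtracted. Each cell took the class with the highest mean marker z-score, where that score was at least 0.5, led the second class by 0.3 and had 3 detected markers. These 3 values were set after the data had been seen. The lead lay within 0.1 of its limit for 145 control and 325 Cre cells just inside and 149 and 274 just outside. Counts were summed per class and library and given as CPM. As 3′ tags count transcripts once, levels were not divided by length. Ratios carry exact conditional Poisson intervals and shares Clopper-Pearson intervals at 95%. Log2 ratios used a pseudocount of 5 CPM and genes with at least 50 UMIs in the class, and the all-gene median of the class was taken off. Ratio intervals were checked on simulated Poisson counts. These hold no variation between cells, mice or libraries, so they check the calculation alone. No test was run, because there is 1 library per genotype.

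Named genes are all isoform pairs, the 2 highest and the lowest member per complex in control AT2-like cells, the 6 highest and 6 lowest ratios in AT2-like cells and the 3 of each in AT1-like, secretory, ciliated and alveolar macrophage-like cells, core subunits, and up to 4 genes per other list. Genes named in NK-like and interstitial macrophage-like cells, and those picked out across classes, were chosen after their values were seen. The members and lists were chosen with earlier results of these data known. The separate values of 1 member are not reported here. Alternatives changed the naming, filters, totals, depth, pseudocount and centre.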

Additional observations from a re-analysis of the deposited data

Results flagged for a closer look

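Members moved in opposite directions in different cell classes under the same contrast, and these differences were not tested. The relative median of the members was 0.14 in AT2-like and 0.20 in alveolar macrophage-like cells, against -0.41 in NK-like cells, the lowest of the 24 classes. Among members and other genes under 1000 bases the values were 0.22, 0.11 and -0.08, and the lowest was then -0.12 in plasmacytoid dendritic-like cells. Cox6b2 had a ratio of 14.2 in ciliated-like cells and of 0.721 in AT2-like cells, a pair picked out after the values were seen. In ciliated-like cells of the Cre library 4 of 80 cells held 77.2% of its UMIs, so the ratio there rests on few cells.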

How the results depend on the processing

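No paired analysis was possible because each genotype has 1 pooled library. The relative median of AT2-like cells ranged from 0.10 to 0.22 and that of alveolar macrophage-like cells from 0.11 to 0.22 over 15 alternatives. The summed ratio in AT2-like cells was 1.23 with at most 10% mitochondrial UMIs, 1.25 with cells named by cluster, 1.21 with each cell thinned to 1000 UMIs, 1.23 without mitochondrial and ribosomal protein genes in the total, 1.15 without Sftpc (an alternative chosen after seeing the data) and 1.12 without the 20 most abundant genes. The count of AT2-like members at least 1.5-fold higher, 0 in the report, was 3 after thinning, 1 with pseudocount 20 and 4 with nothing taken off (chosen after seeing the data). The count lower, 1 in the report, was 2 after thinning, 2 with pseudocount 1 and 2 without the 20 most abundant genes. The Cox6a2 ratio was 0.119 after thinning. The relative median of secretory airway-like cells was 0.15 with pseudocount 20. It crossed 0 in 5 of 15 alternatives (-0.16 to 0.15), that of AT1-like cells in 3 (-0.12 to 0.05), that of ciliated-like cells in 2 (-0.03 to 0.09) and that of interstitial macrophage-like cells in 2 (-0.13 to 0.19), so these 4 have no settled direction. All 17 classes below 0 stayed below in the 14 alternatives that keep members of any length, and 11 of them in the comparison among genes under 1000 bases, which was chosen after seeing the data. The causes of these changes were not tested. Depth limits the isoforms of small classes, such as pericyte-like cells with 17 and 24 cells.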
